A study of Arabidopsis thaliana with 84 samples.

Results

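The pericycle of the Arabidopsis thaliana root was examined through 9 arrays of sorted pericycle cells, called Peri, out of 84 arrays in the whole series. These were the Peri arrays without a glutamine synthetase inhibitor, and they were set against 36 arrays of the other 4 sorted populations under the same treatments. Transcripts were measured on Affymetrix ATH1 arrays, which carry 22810 probe sets, and the values are log2 signals. The other 4 populations were the root cap at the sides of the tip (LRC), epidermal together with cortical cells (EpiC), endodermis sorted together with pericycle (EndoP) and the stele (Stele), each with 9 arrays.

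All plants were of the Col-0 background and 12 days old, and they had been grown hydroponically with ammonium succinate as the sole nitrogen source. Treatment lasted 2 h, and in every population it was of 3 kinds, with 3 biological replicates each. The first was 5 mM KNO3 kept in the protoplasting solution (continuous KNO3), the second 5 mM KNO3 left out of that solution (transitory KNO3), and the third 5 mM KCl as the control. All cells had passed through wall digestion and fluorescence-activated sorting, and all RNA was amplified in 2 cycles from 50 ng. The fluorescent lines behind the sorts are not given in the sources used here. A further 9 Peri arrays had 1 mM methionine sulfoximine (MSX), which blocks glutamine synthetase, with KCl, with KNO3, or with KNO3 and 5 mM glutamine. No other population had those treatments, so their values are given as a description alone.

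The pericycle is the outermost cell layer of the stele and lies just inside the endodermis. It is known as the layer in which lateral roots begin, when founder cells opposite the xylem poles divide, and as a layer through which ions pass on their way to the xylem. Nitrate acts on both functions, as a nutrient loaded towards the shoot and as a signal that alters lateral root growth. The genes given as marks of the Peri cells were OCT1 (AT1G73220), an organic cation transporter that carries carnitine, and BCAT4 (AT3G19710), the aminotransferase that starts the elongation of methionine on the way to aliphatic glucosinolates, the sulfur-rich defence compounds of this plant family.

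The arrays differed in quality in ways that ran with population and treatment. Array signal, the mean of the linear values of an array with 2% trimmed at each end, was 173 to 176 on the Peri KCl arrays. It was 353 and 288 on Peri transitory replicates 1 and 2 and 321 and 372 on Peri continuous replicates 1 and 2, against 177 and 205 on replicate 3 of the same treatments. Elsewhere the arrays of LRC had 170 to 285, those of EpiC 173 to 201, those of EndoP 190 to 293 and those of Stele 171 to 314. The 3′ minus 5′ signal of the GAPDH control probe sets, which grows as RNA becomes shorter, was 2.23 to 4.64 in Peri, 3.40 to 6.38 in LRC, 2.57 to 4.12 in EpiC, 2.25 to 4.45 in EndoP and 2.36 to 3.69 in Stele. LRC continuous replicate 1 and EndoP transitory replicate 1 stood apart from their own populations, with median correlations of 0.667 and 0.572 to the other arrays of the population. The Peri nitrate arrays were also low, at 0.748 to 0.812 (transitory) and 0.739 to 0.776 (continuous), against 0.857 to 0.911 for Peri KCl. The Peri values include the arrays with MSX. LRC continuous replicate 3 had 0.737. EpiC had 0.879 to 0.927, Stele 0.854 to 0.935 and the remaining EndoP arrays 0.907 to 0.963. Quantile normalization made the distributions of all sorted arrays alike, and the part of brightness and 3′ bias in the results below was not tested beyond the alternatives given beside them.

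**Figure D1:**
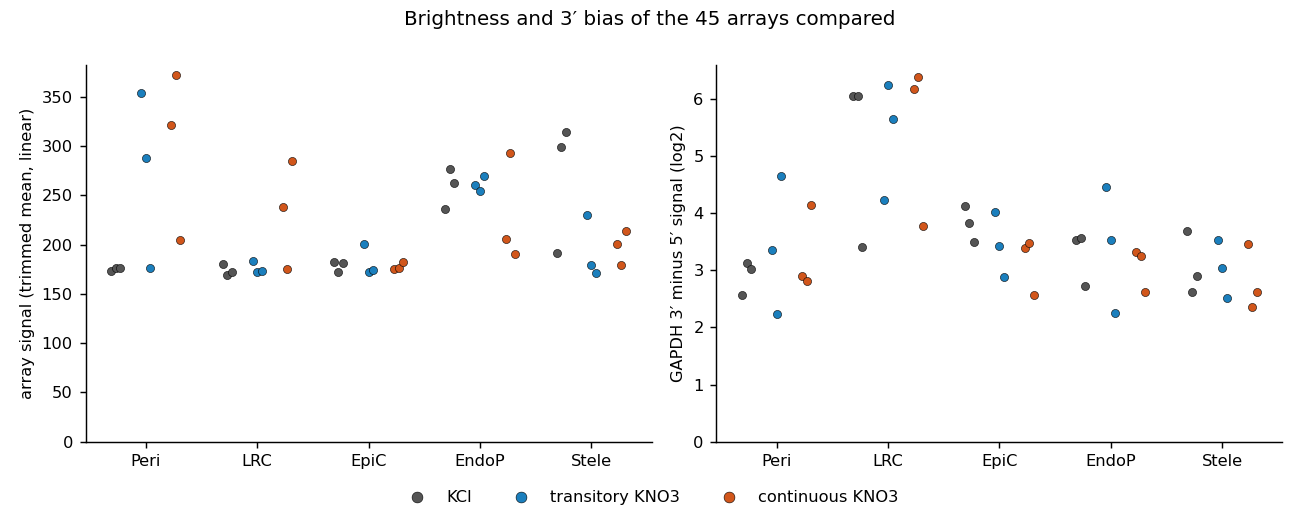
Array signal on the deposited scale (left, linear trimmed mean) and the GAPDH 3′ minus 5′ difference (right, log2) for each of the 45 arrays, with points coloured by treatment and populations along the x axis. The Peri KCl arrays lie at 173 to 176, whereas 4 of the 6 Peri nitrate arrays lie between 288 and 372. LRC reaches the highest 3′ minus 5′ difference, 6.38.

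OCT1 and BCAT4 were both higher in Peri than in the mean of the other 4 populations. Both were named with results of these data known, so they are no independent check of the label. On the KCl arrays OCT1 had log2 signals of 9.68, 10.08 and 11.82 in Peri, against 8.93, 10.07 and 9.16 in EndoP. Over all treatments the other populations had 5.66 to 7.12 (LRC), 5.78 to 6.43 (EpiC), 6.90 to 10.07 (EndoP) and 6.13 to 7.08 (Stele). Under nitrate Peri had 9.50, 8.54 and 6.80 (transitory) and 8.45, 7.46 and 7.32 (continuous). In words, every Peri array lay above all EpiC arrays, Peri replicate 3 of transitory KNO3 fell within the ranges of LRC and Stele, and Peri overlapped with EndoP in each treatment. The difference from the mean of the other 4 was 2.15 ± 0.28 (log2, SE; adjusted p = 2.91e-07 by limma with Benjamini-Hochberg adjustment over 19072 probe sets).

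BCAT4 had log2 signals of 10.02, 9.21 and 9.89 in Peri under KCl, 7.96, 9.25 and 8.71 under transitory and 8.26, 8.08 and 7.53 under continuous KNO3. The other 36 arrays ran from 5.70 to 9.28 with a median of 6.39. Peri and EndoP overlapped under nitrate but not under KCl, where EndoP had 7.79, 7.89 and 8.04. Its difference was 1.91 ± 0.25 (adjusted p = 3.03e-07 by limma). Against EndoP alone the differences were 0.74 for OCT1 and 0.63 for BCAT4, and neither passed (limma adjusted p = 0.361 and 0.385). EndoP contains pericycle cells by its label. As throughout these bulk samples, fewer cells of a type and less RNA per cell cannot be told apart.

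The Peri arrays with MSX, which entered no test, ranged from 7.27 to 10.73 with a median of 9.42 for OCT1 and from 8.37 to 10.46 with a median of 9.41 for BCAT4. For both genes, these medians lie above those of the 9 Peri arrays without MSX, which were 8.54 and 8.71.

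**Figure D2:**
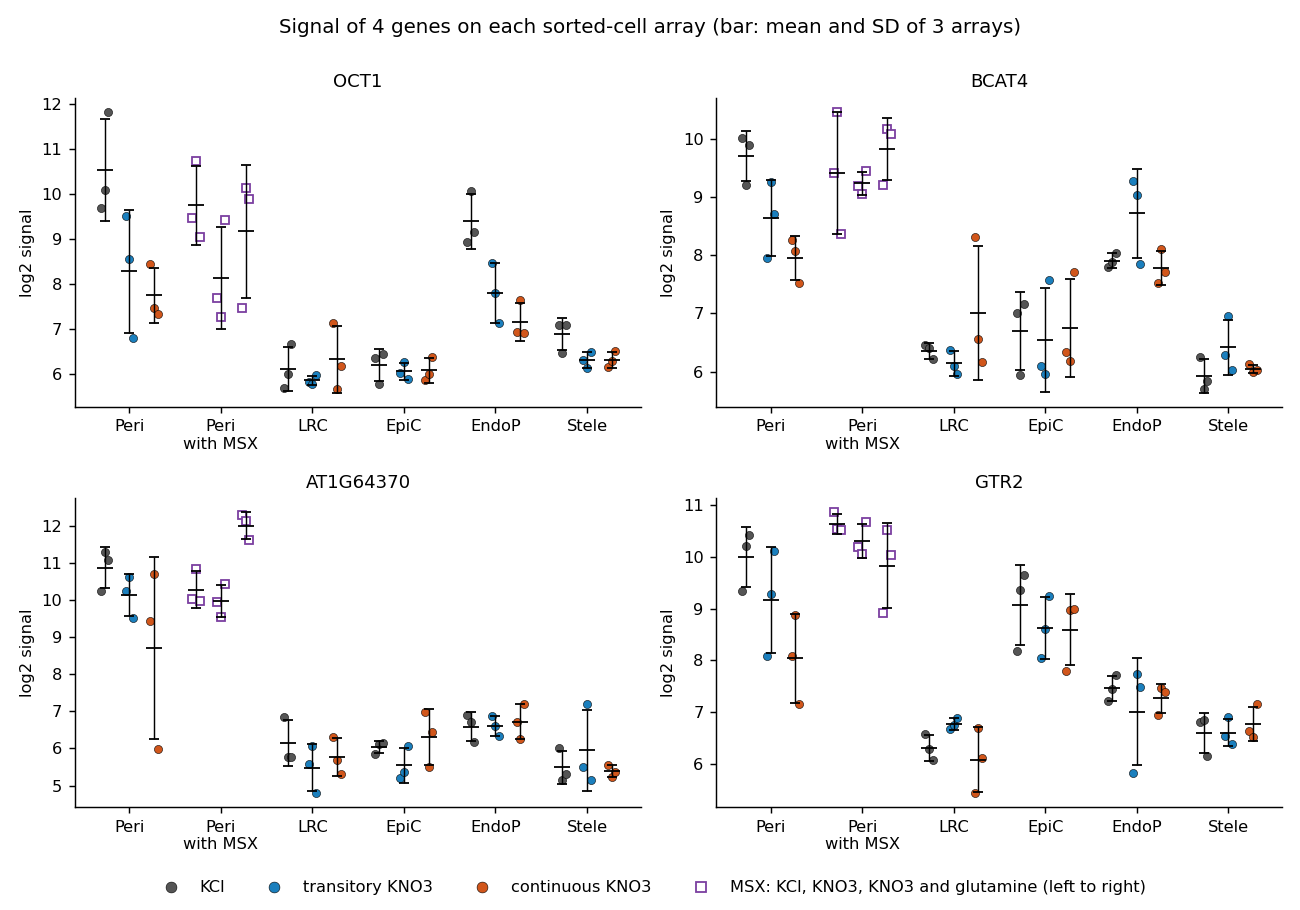
Log2 signal (y axis) of OCT1, BCAT4, AT1G64370 and GTR2 on each array, by population along the x axis, with circles coloured by treatment and open squares for the 9 Peri arrays with MSX. Horizontal bars and whiskers are the mean and SD of 3 arrays. OCT1 and BCAT4 are also high in EndoP, AT1G64370 is high in Peri with the exception of 1 continuous array at 5.98, and GTR2 is also high in EpiC.

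Over all probe sets, 529 of the 19072 tested were higher in Peri than in the mean of the other 4 (2.77%) and 703 were lower (3.69%), which makes 1232 (6.46%) at adjusted p under 0.05 by limma. Of these, 194 were higher and 266 lower by 1 log2 unit or more. Without quantile normalization the count was 1778 with the balance turned, 1072 higher and 706 lower, and the median difference over all probe sets was 0.15 in place of 0.01. Without the 2 arrays that stood apart the count was 2175, and no single array changed it by more than 1.5 times. Leaving out LRC as a whole gave 473 and leaving out EndoP gave 2687.

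A difference from a mean of 4 does not make Peri the extreme population. Among the 529 higher probe sets Peri had the highest mean of the 5 populations in 392, EndoP in 79, EpiC in 50, Stele in 7 and LRC in 1. Among the 703 lower ones Peri had the lowest mean in 405, EndoP in 164, Stele in 120, EpiC in 12 and LRC in 2. Over all tested probe sets Peri was the highest population in 11.4% and the lowest in 10.4%, the smallest shares of the 5.

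How far Peri stood from each population differed widely. Against LRC 3184 probe sets were higher (16.7%) and 3135 lower (16.4%) in Peri, 33.1% in all. Against EpiC 1554 were higher (8.15%) and 1996 lower (10.5%), 18.6% in all. Against Stele 748 were higher (3.92%) and 919 lower (4.82%), 8.74% in all, and against EndoP 196 were higher (1.03%) and 96 lower (0.503%), 1.53% in all. The 4 comparisons share the Peri arrays, and the order of their counts was not tested.

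These counts moved with the bright arrays and with single arrays. An alternative chosen after the data were seen left out the 4 brightest of the 9 Peri arrays without MSX, called the 4 brightest Peri arrays below. These were replicates 1 and 2 of both nitrate treatments, so the KCl arrays and replicate 3 of each nitrate treatment remained. The number and treatment balance of the Peri arrays thus changed together with brightness. The counts were then 2882 against LRC, 761 against EpiC, 2563 against Stele and 4563 against EndoP. EndoP thus turned from the population with the fewest differences to the one with the most. With array signal as a covariate the counts were 4150, 1251, 2798 and 993, and with the GAPDH difference as a covariate the count against LRC was 1867. The EpiC count was 1961 and 2104 without Peri transitory replicates 1 and 2, 2042 and 2095 without Peri continuous replicates 1 and 2, and 2294 and 2339 without EpiC continuous replicates 1 and 2. The EndoP count was 455 without Peri continuous replicate 3 and 479 without EndoP transitory replicate 1. Without quantile normalization the shares shifted towards higher in Peri against LRC (4388 higher and 2271 lower) and EpiC (3989 and 1132), and away from it against EndoP (292 and 231), while Stele had 1408 and 1190.

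**Figure D3:**
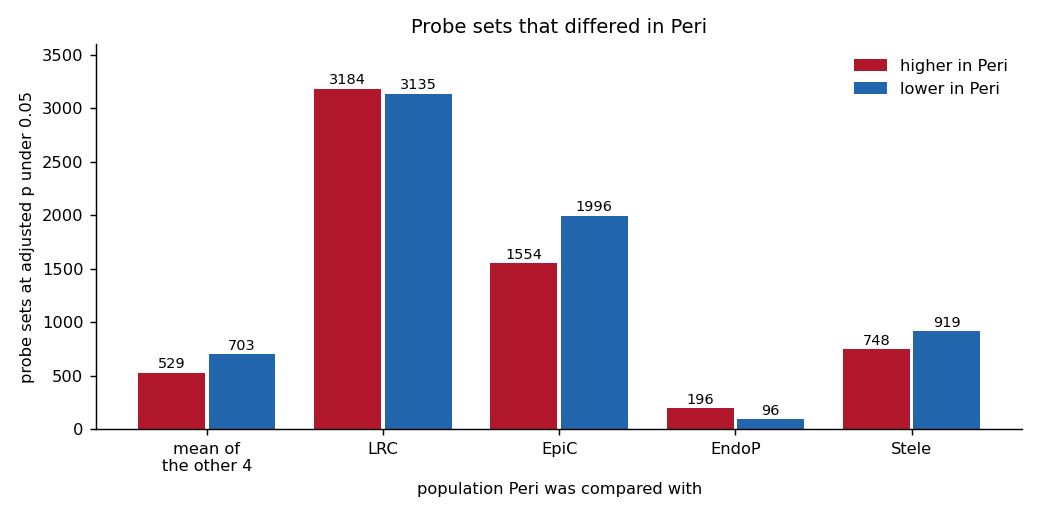
Number of probe sets (y axis) higher (red) or lower (blue) in Peri at adjusted p under 0.05 by limma, for the mean of the other 4 populations and for each population along the x axis. The bars are tallest against LRC, 3184 and 3135, and shortest against EndoP, 196 and 96.

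Only 14 probe sets (0.0734%) passed against all 4 populations in the same direction, 13 higher (0.0682%) and 1 lower (0.00524%). Of these, 7 of the higher ones and the lower one map to 1 gene each, and all 8 are known here by locus alone, so no role is given. They are named because they are few, after their values were seen. The count was 51 without Peri continuous replicate 3, 25 without EndoP transitory replicate 1, 37 without the 2 arrays that stood apart and 53 without the 4 brightest Peri arrays.

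AT1G64370 had the largest difference of these 8 genes. Its log2 signals in Peri were 10.25, 11.30 and 11.06 under KCl, 10.24, 10.62 and 9.52 under transitory KNO3 and 9.44, 10.69 and 5.98 under continuous KNO3. The other 36 arrays ran from 4.80 to 7.19 with a median of 6.03. Thus 8 of the 9 Peri arrays lay above all others, and continuous replicate 3 lay among them. The difference was 3.90 ± 0.30 (log2, SE; adjusted p = 3.04e-12 by limma), and it was 3.26 against EndoP, the nearest population (limma adjusted p = 2.99e-07). On the MSX arrays it stood at 9.55 to 12.28.

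AT1G24575 had 8.16, 7.89 and 8.39 in Peri under KCl, 7.18, 6.78 and 7.04 under transitory and 6.49, 6.74 and 6.07 under continuous KNO3, against 4.29 to 6.85 (median 5.27) on the other 36 arrays. Its KCl arrays lay above every other population and its continuous arrays within the upper part of their range, with an overall difference of 1.85 ± 0.20 (adjusted p = 1.52e-08 by limma). AT1G23130 differed by 1.84 ± 0.27, AT4G15690 by 1.60 ± 0.23, AT1G19715 by 1.27 ± 0.18, AT5G59530 by 1.14 ± 0.18 and AT3G61210 by 0.66 ± 0.15. AT4G15690 was uneven among the Peri arrays, from 4.23 to 7.96, against 3.38 to 5.45 elsewhere. AT1G19715 had 4.81 to 7.12 in Peri, against 4.09 to 5.83 elsewhere. Both were dim outside Peri, and the filter admits a probe set that is bright on any 3 arrays. Such genes may have entered the test through their Peri arrays alone, so their calls are a description. AT4G15690, AT1G19715 and AT3G61210 passed the filter in 60, 58 and 56 of 61 alternatives. On the Peri arrays with MSX, AT4G15690 had 4.19, 4.78 and 4.64 with KCl, 5.66, 5.63 and 6.40 with KNO3 and 9.99, 9.94 and 9.86 with KNO3 and glutamine. The 3 glutamine arrays thus lay above every other Peri array, and those with MSX and KCl lay within the range of the other populations.

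AT5G60160 was the single gene lower in Peri than in each other population. Its log2 signals in Peri were 5.94, 6.03 and 6.50 under KCl, 5.73, 6.34 and 6.53 under transitory and 5.68, 6.13 and 7.96 under continuous KNO3, against 6.20 to 9.21 (median 8.52) on the other 36. Of the 9 Peri arrays 5 lay below all others, and continuous replicate 3 again lay among them. The difference was -1.95 ± 0.22 (adjusted p = 3.18e-08 by limma).

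A broader rule took the called probe sets whose Peri mean lay beyond the means of all 4 other populations in each of the 3 treatments. It held for 120 higher (0.629%) and 69 lower probe sets (0.362%), 0.991% in all, of which 62 and 37 map to 1 gene and 10 and 6 to a gene with a symbol other than its locus. The rule uses the tested contrast, so the values of these 16 genes are a description of which genes they are.

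FMO (AT1G12200), a flavin-containing monooxygenase, had 9.95, 9.60 and 9.91 in Peri under KCl, 9.46, 9.49 and 7.13 under transitory and 9.89, 9.38 and 7.36 under continuous KNO3. EndoP had 6.86 to 9.76 by array, Stele 7.36 to 8.71, EpiC 5.84 to 7.12 and LRC 5.62 to 7.44. Replicate 3 of both nitrate treatments was low in Peri, and Peri and EndoP overlapped. Its difference of 1.76 ± 0.26 (adjusted p = 3.63e-06 by limma) was 0.28 against EndoP. The serine carboxypeptidase-like gene scpl31 (AT1G11080) differed by 1.67 ± 0.24, and BAT1 (AT4G31910), an acyltransferase that acts on brassinosteroids, by 1.61 ± 0.25. BAT1 had 8.49 to 11.73 across the Peri arrays, against 6.77 to 9.97 on the other 36.

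ATMDAR2 (AT5G03630), a monodehydroascorbate reductase of the ascorbate cycle, had 11.07 to 11.97 in Peri (median 11.68), against 9.26 to 11.66 on the other 36 (median 10.89), and 6 of 9 Peri arrays lay above all of those. Its difference was 0.84 ± 0.17 (adjusted p = 6.15e-04 by limma), and it was 0.65 without the 4 brightest Peri arrays (limma adjusted p = 0.0928). GR1 (AT3G24170), glutathione reductase 1, differed by 0.81 ± 0.24 (limma adjusted p = 0.0255), with 10.02 to 11.61 in Peri and 7.50 to 11.37 elsewhere. The call on GR1 was lost without Peri KCl replicate 2 or 3, transitory replicate 3 or continuous replicate 2. It was lost also without LRC, with the other 4 as 1 level, with the GAPDH difference as a covariate and without the 4 brightest Peri arrays. GR1 passed under 53 of 61 alternatives. The transcription factor gene bHLH115 (AT1G51070), known from iron homeostasis, differed by 0.85 ± 0.17 (limma adjusted p = 6.06e-04).

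PUCHI (AT5G18560), an AP2 transcription factor that shapes early lateral root primordia, had 6.93 to 7.58 in Peri under KCl, 7.38, 6.94 and 6.31 under transitory and 7.28, 7.03 and 6.28 under continuous KNO3. The other 36 arrays ran from 5.24 to 6.95 with a median of 6.33. Among them EndoP had 6.21 to 6.95 and reached the top of that range. Of the Peri arrays 5 lay above all of them, and replicate 3 of both nitrate treatments lay near their median. The difference was 0.66 ± 0.13 (log2, SE; adjusted p = 3.08e-04 by limma). Without the 4 brightest Peri arrays it was 0.54 (limma adjusted p = 0.0554), and PUCHI passed under the other 60 of 61 alternatives.

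CLE44 (AT4G13195), which encodes a peptide that restrains xylem differentiation and promotes division in the vascular cambium, differed by 0.61 ± 0.13 (limma adjusted p = 0.00168). EXPA4 (AT2G39700), an expansin that loosens cell walls, had 6.32 to 7.89 in Peri, against 5.14 to 6.99 on the other 36, a difference of 0.82 ± 0.13 (limma adjusted p = 1.68e-05). In both genes the Peri range overlapped with the others, and 1 Peri array for CLE44 and 4 for EXPA4 lay above all 36.

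Of the 6 lower genes with a symbol, GSTU26 (AT1G17190), a tau-class glutathione S-transferase, was lowest. It had 5.30, 6.62 and 5.73 in Peri under KCl, 5.24, 5.11 and 7.75 under transitory and 5.03, 5.77 and 5.93 under continuous KNO3, against 5.82 to 10.43 (median 8.04) on the other 36. Of the 9 Peri arrays 6 lay below all others, while KCl replicate 2 and replicate 3 of both nitrate treatments lay among them. The difference was -2.25 ± 0.31 (adjusted p = 9.85e-07 by limma), and GSTU26 passed in all 61 alternatives.

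BGLU36 (AT1G51490), of the beta-glucosidase family, differed by -1.51 ± 0.21 (limma adjusted p = 1.16e-06). Its Peri mean was 5.85 ± 0.21 (SD, n = 9), against 9.97 ± 0.56 in LRC, 7.05 ± 0.48 in EpiC, 6.14 ± 0.49 in EndoP and 6.27 ± 0.83 in Stele, so the gap lay mainly against LRC, and the call was lost when LRC was left out. ACT11 (AT3G12110), an actin gene, had the other pattern. It stood at 7.06 ± 1.02 in Peri, against 8.37 ± 0.64 in LRC, 7.47 ± 0.29 in EpiC, 8.93 ± 0.53 in EndoP and 9.04 ± 0.80 in Stele (difference -1.40 ± 0.25, limma adjusted p = 1.36e-04), and without the 4 brightest Peri arrays it was -0.76 (limma adjusted p = 0.162).

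The remaining 3 were SP1L4 (AT5G15600), of the SPIRAL1-like microtubule proteins, at -0.66 ± 0.16, PUB26 (AT1G49780), a U-box ubiquitin ligase, at -0.66 ± 0.20, and NRPD7 (AT3G22900), a subunit of RNA polymerase IV, at -0.44 ± 0.13. Their limma adjusted p were 0.00569, 0.0358 and 0.0277. PUB26 lost its call without any one of Peri KCl replicate 1, the 3 transitory replicates and continuous replicates 1 and 2. NRPD7 lost it without Peri KCl replicate 1, transitory replicate 3 or continuous replicate 2. Both genes also lost it with array signal or the GAPDH difference as a covariate and with the other 4 as 1 level. The same held without Stele and without the 4 brightest Peri arrays. Leaving out EpiC cost PUB26 its call, and leaving out LRC cost NRPD7 its call. SP1L4 lost its call only without the 4 brightest Peri arrays.

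Among genes known by locus alone, the 4 highest by the same rule were AT1G64370, AT1G67870 (2.33 ± 0.37), AT3G45160 (2.32 ± 0.33) and AT3G28510 (2.05 ± 0.31). The 4 lowest were AT4G04460 (-2.86 ± 0.31), AT5G24070 (-2.35 ± 0.29), AT3G47400 (-2.24 ± 0.21) and AT5G60160. AT1G67870 averaged 9.62 ± 1.23 in Peri, against 6.28 ± 1.12 in LRC, 6.27 ± 0.63 in EpiC, 8.73 ± 0.76 in EndoP and 7.89 ± 1.29 in Stele (SD, n = 9 each). AT3G28510 was instead closest in EpiC, at 11.11 ± 0.93 in Peri, against 8.08 ± 0.89 in LRC, 10.45 ± 0.52 in EpiC, 8.77 ± 0.90 in EndoP and 8.93 ± 0.97 in Stele.

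For 3 of the lower loci the distance was largest to LRC. AT4G04460 averaged 5.67 ± 0.50 in Peri, against 12.19 ± 0.39 in LRC, 8.29 ± 0.70 in EpiC, 6.61 ± 1.09 in EndoP and 7.03 ± 1.25 in Stele. AT5G24070 averaged 6.73 ± 0.31 in Peri and 12.27 ± 0.35 in LRC, and AT3G47400 averaged 6.35 ± 0.60 in Peri and 11.63 ± 0.53 in LRC. Against EndoP none of the 3 passed, with differences of -0.94, -0.72 and -0.57 (limma adjusted p = 0.286, 0.395 and 0.339).

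**Figure D4:**
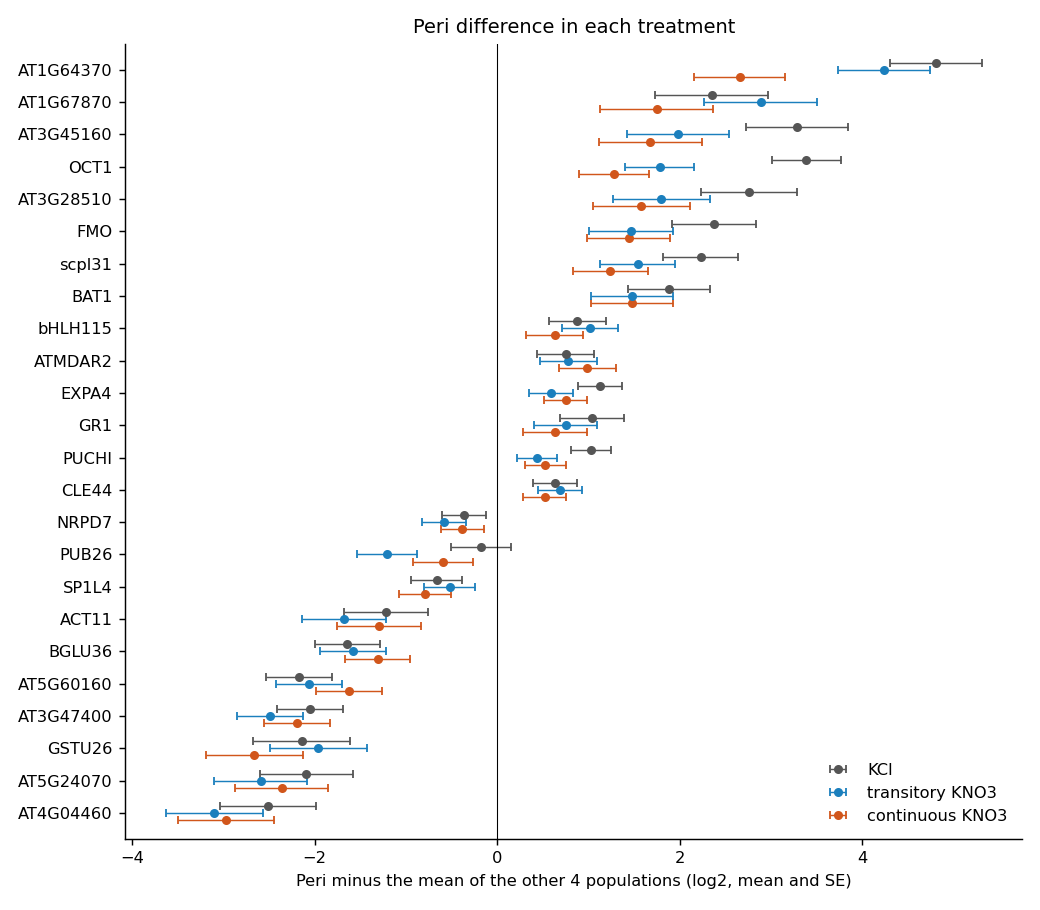
Peri minus the mean of the other 4 populations (x axis, log2, mean and SE from the fit with 1 coefficient per population and treatment) in KCl, transitory and continuous KNO3 for the 24 genes of the rule, ordered by their overall difference from AT1G64370 (3.90) at the top to AT4G04460 (-2.86) at the bottom. OCT1 and AT3G45160 have their largest difference in KCl. PUB26 lies near 0 in KCl, at -0.18.

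Aliphatic glucosinolate synthesis, the pathway that BCAT4 opens, could be followed in 5 of its 30 listed genes, since the other probe sets have no gene name here. Of these 5, BCAT4 and GSTU20 (AT1G78370), a glutathione S-transferase placed in the pathway, were higher in Peri, none was lower, and the median difference was 0.63, against 0.01 over all probe sets tested, of which 2.77% were higher. Against EndoP alone the median of the 5 was -0.01, against 0.03 over all probe sets tested. BCAT4 was given as a mark of the Peri cells with results known, so 1 of the other 4 genes was higher. That gene, GSTU20, averaged 8.39 in Peri and 8.56 in EndoP, a difference of -0.16 that did not pass (limma adjusted p = 0.91). The number of higher genes, BCAT4 included, was 4 without quantile normalization or without Peri continuous replicate 3, and 1 without the 4 brightest Peri arrays. GSTU20 had 8.32, 8.83 and 8.93 in Peri under KCl, 6.72 to 9.04 over the 6 nitrate arrays, with 6.72 on transitory replicate 3 and 7.19 on continuous replicate 3. EndoP had 7.64 to 9.38 by array and EpiC 6.22 to 7.15, so that Peri overlapped with EndoP and, with transitory replicate 3 aside, lay above EpiC. The difference was 0.98 ± 0.26 (limma adjusted p = 0.0129), and its call was lost without LRC, without EpiC, with the other 4 as 1 level, with the GAPDH difference as a covariate and without the 4 brightest Peri arrays.

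UGT74B1 and UGT74C1, the glucosyltransferases of the core pathway, differed by 0.63 ± 0.29 and 0.43 ± 0.15 and did not pass (limma adjusted p = 0.221 and 0.072), and AOP3, a side-chain enzyme, differed by -0.08. Sulfate activation and methionine supply was measured through 3 of 15 genes, of which 1 was higher, against 2.77% of all probe sets tested. The list median was 0.53, against 0.01 over all probe sets. The higher gene was APS4 (AT5G43780), an ATP sulfurylase of the first step of sulfate assimilation, at 1.12 ± 0.22 (limma adjusted p = 4.00e-04). It had 8.80 to 11.42 in Peri (median 10.94) and 7.63 to 10.87 elsewhere (median 9.40). Its mean was 10.56 in Peri, against 8.80 in LRC, 10.05 in EpiC, 10.19 in EndoP and 8.72 in Stele. Against EpiC and EndoP alone the differences of 0.50 and 0.37 did not pass (limma adjusted p = 0.177 and 0.62). SIR, sulfite reductase, and APS3, another ATP sulfurylase, differed by 0.53 and 0.24 without passing. With array signal as a covariate, and likewise without the 4 brightest Peri arrays, all 3 of these genes were higher.

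GTR2 (AT5G62680), an importer that moves glucosinolates into cells, was noticed after its values were seen. It had 9.34, 10.21 and 10.43 in Peri under KCl, 8.09, 9.28 and 10.12 under transitory and 8.08, 8.88 and 7.16 under continuous KNO3. The means were 9.07 ± 1.12 in Peri, against 6.39 ± 0.46 in LRC, 8.76 ± 0.64 in EpiC, 7.25 ± 0.59 in EndoP and 6.66 ± 0.30 in Stele (SD, n = 9 each). Peri and EpiC overlapped in each treatment, whereas 8 of the 9 Peri arrays lay above all EndoP arrays. The overall difference was 1.80 ± 0.24 (limma adjusted p = 5.34e-07) and passed in all 61 alternatives, and against EndoP it was 1.82 (limma adjusted p = 1.27e-04), unlike OCT1 and BCAT4, which did not pass there. Whether the EndoP differences of these genes differ from each other was not tested.

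OCT1 and BCAT4 followed each other across the 15 population and treatment means (Pearson r = 0.87, a description over means that share their arrays). Over the 1390 genes with a symbol, the 5 most like OCT1 were ATSBT5.2, a subtilase (r = 0.93), EXPA4 (0.92), EXLB1, an expansin-like gene (0.89), CYP71B37, a cytochrome P450 (0.88), and PDF2.1, a defensin (0.87). The 5 most like BCAT4 were scpl31 (0.96), ATC, of the TERMINAL FLOWER1 family (0.90), ZIP6, of a family of metal transporters (0.89), ATSBT5.2 (0.89) and CYP71B37 (0.88). Of these 8 genes, 2 also belong to the rule above, EXPA4 and scpl31. EXLB1 had a higher mean in EndoP than in Peri, at 8.90 in Peri and 9.42 in EndoP, with 6.64 in LRC, 6.89 in EpiC and 7.60 in Stele.

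The other listed groups showed few calls. For the lists that follow, 2.77% of all probe sets tested were higher and 3.69% lower, with a median difference of 0.01. Of the lateral root founder genes 3 of 16 were measured, and 1, PUCHI, was higher, with a list median of 0.54. LBD16, which acts in the founder cells, differed by 0.54 ± 0.20 and ACR4, a receptor kinase that limits their divisions, by -0.20 ± 0.15, and neither passed (limma adjusted p = 0.0988 and 0.485). With LBD16, 2 of the 3 were higher without Peri transitory replicate 3. LBD16 under KCl alone differed by 1.48 (limma adjusted p = 0.00273 within that treatment). Under transitory and continuous KNO3 it differed by -0.14 and 0.27, and neither passed (limma adjusted p = 0.799 and 0.574). The change of the LBD16 difference with treatment did not pass either (F test in limma, adjusted p = 0.0682). Of the organic cation transporters 1 of 3 was higher, OCT1, while OCT4 and OCT5 differed by 0.10 and -0.20.

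Nitrate assimilation was represented by the 3 phosphogluconate dehydrogenases PGD1, PGD2 and PGD3, which supply reducing power, at 0.12, 0.44 and 0.04 with no call. Of the nitrate regulators HHO1, HHO2 and HHO3, repressors of the nitrate starvation response, HHO1 (AT3G25790) was lower in Peri, with a difference of -1.27 ± 0.32 (limma adjusted p = 0.00816). HHO1 had 7.60, 5.98 and 4.92 in Peri under KCl, 5.86, 6.72 and 8.96 under transitory and 6.60, 6.98 and 5.57 under continuous KNO3, against 8.78 to 10.82 in LRC. Peri overlapped with EpiC, EndoP and Stele and reached LRC in 1 array, and the call was lost without LRC and without the 4 brightest Peri arrays. The auxin-conjugating gene GH3.1 was lower by a difference of -0.65 ± 0.21 (limma adjusted p = 0.0443), a call lost when any one of many single arrays was left out, since it passed under 31 of 61 alternatives.

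JKD, a zinc-finger factor of radial patterning, was the one called of 3 cortex markers, while 2.77% of all probe sets were higher. It had 7.32, 7.47 and 7.19 in Peri under KCl, 8.86, 7.23 and 8.47 under transitory and 8.74, 9.18 and 8.61 under continuous KNO3. The difference was 0.84 ± 0.23 (limma adjusted p = 0.0179). The call was lost without Peri transitory replicate 1 or continuous replicate 1 or 2, without LRC, with the other 4 as 1 level, with array signal as a covariate and without the 4 brightest Peri arrays. The summed log2 level of the cortex markers was 8.13 to 10.08 in Peri, against 7.80 to 9.21 in LRC, 8.40 to 9.14 in EpiC, 7.84 to 9.26 in EndoP and 7.76 to 9.06 in Stele.

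None of the remaining markers was called, but 2 lay near the threshold. The root cap polygalacturonase RCPG was at 4.96 to 6.67 in Peri, against 5.87 to 9.02 in LRC, 5.12 to 6.23 in EpiC, 5.26 to 7.16 in EndoP and 5.27 to 8.12 in Stele, and differed by -0.83 ± 0.28 (limma adjusted p = 0.0646). GSO1, a receptor kinase of the Casparian strip in the endodermis, was at 6.56 to 9.72 in Peri, against 5.29 to 7.37 in LRC, 7.25 to 8.84 in EpiC, 6.74 to 8.92 in EndoP and at most 8.29 in Stele, and differed by 0.74 ± 0.24 (limma adjusted p = 0.0549). Without quantile normalization, and likewise without the 2 arrays that stood apart, RCPG was called as lower and GSO1 as higher. RCPG passed under 10 and GSO1 under 16 of 61 alternatives.

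The 2 epidermal expansins summed to 7.23 to 9.97 in Peri, against 6.87 to 9.60 in LRC, 6.85 to 8.60 in EpiC, 8.67 to 9.94 in EndoP and 7.08 to 10.32 in Stele. EXPA7, an expansin of root hair cells and one of the pair, was split within Peri. It had 9.48 and 9.48 on transitory and 9.15 and 9.62 on continuous replicates 1 and 2, the 4 brightest of the Peri arrays without MSX. On the other 5 of these it had 5.87 to 7.47. PORB, a protochlorophyllide reductase in the photosynthesis list, had 10.73 to 11.01 on those 4 arrays, against 7.03 to 9.48 on the other 5. For both genes the 4 bright arrays lay above the other 5 Peri arrays without MSX. Of the Peri arrays with MSX, replicate 2 with KNO3 had 9.37 for EXPA7 and 11.29 for PORB, at an array signal of 289. The other MSX arrays had 6.04 to 8.27 for EXPA7 and 6.89 to 9.29 for PORB. High values on bright arrays were not confined to Peri. LRC continuous replicate 3, at 285, had 9.27 and 10.90, against 5.91 to 7.13 and 6.72 to 7.73 on the other LRC arrays. Stele KCl replicates 2 and 3, at 299 and 314, had 9.56 and 10.04 for EXPA7 and 11.90 and 11.95 for PORB. In EndoP, transitory replicate 1 had 6.92 and 9.24 at 260, and continuous replicate 3 had 8.33 and 10.50 at 190. The part of the 4 bright Peri arrays in the results that lose their call without them was not tested. The difference of EXPA7 was 0.25 ± 0.40 over all arrays (limma adjusted p = 0.757) and -1.17 without the 4 brightest.

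LHW, a vascular transcription factor, stood at 9.80 to 12.06 in Peri, against 8.85 to 10.91 in LRC, 9.27 to 11.20 in EpiC, 9.57 to 12.44 in EndoP and 9.67 to 11.18 in Stele. These markers are 1 of 5, 1 of 9, 2 of 8 and 1 of 11 genes of their lists, so other defining markers were not measured by name. All 13 photosynthesis genes had a positive difference and none passed, with a median of 0.33, against 0.01 over all probe sets tested. These genes were measured on the same arrays, the share of positive differences over all probe sets was not counted, and their common sign was not tested. Their summed level was 10.55 to 12.03 in Peri, against 10.53 to 12.16 in LRC, 10.10 to 13.19 in EpiC, 11.09 to 12.43 in EndoP and 9.93 to 12.43 in Stele. Of 5 stress and touch genes none passed, with a median of -0.01. Their part in the Peri differences was not tested.

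Gene families that recurred among the called genes were described after their values were seen. Of 42 UDP-glycosyltransferases, enzymes that attach sugars to small molecules, 8 were higher and 1 was lower (2.77% and 3.69% of all probe sets were), with a median of 0.18. The highest was UGT76B1, which glucosylates isoleucic and salicylic acid, at 1.23 ± 0.31 (limma adjusted p = 0.008). Its mean was 10.59 in Peri, against 9.15 in LRC, 11.01 in EpiC, 8.13 in EndoP and 9.17 in Stele. UGT72E2, which glucosylates lignin precursors, was at 10.93 in Peri, against 10.45 in LRC, 11.75 in EpiC, 8.76 in EndoP and 9.43 in Stele (0.83 ± 0.21, limma adjusted p = 0.00652). In both EpiC was above Peri. UGT72E1, its close relative, was the lower one, at 6.65 in Peri, against 9.80 in LRC, 9.87 in EpiC, 6.96 in EndoP and 6.86 in Stele (-1.71 ± 0.23, limma adjusted p = 1.07e-06). The number of higher family members was 4 without LRC, 4 without the 4 brightest Peri arrays and 14 without quantile normalization. It was 4 also without Peri KCl replicate 2 or without replicate 3, where UGT71C5, UGT71B1, UGT74D1 and UGT71C1 lost their calls, and 5 without Peri transitory replicate 2 or continuous replicate 2.

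For the families that follow, too, 2.77% of all probe sets were higher and 3.69% lower. Tau-class glutathione S-transferases were split, with 2 of 10 higher (GSTU20 and GSTU27, at 0.98 and 0.91) and 3 lower (GSTU26, GSTU25 and GSTU22, at -2.25, -1.66 and -1.12). GSTU25 averaged 8.65 in Peri, against 12.18 in LRC, 10.54 in EpiC, 9.44 in EndoP and 9.08 in Stele. Without LRC none of the 10 was higher and 2 were lower, and likewise without the 4 brightest Peri arrays. Of 18 expansins and related proteins 3 were higher, EXLB1, EXPA8 and EXPA4 (1.26, 0.96 and 0.82), and none was lower.

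In 5 further families most of the called members were lower in Peri. Of 28 serine carboxypeptidase-like proteins 5 were lower, among them scpl48 (-2.08 ± 0.32) and SCPL34 (-1.76 ± 0.27), and 1, scpl31, was higher. scpl48 averaged 7.60 in Peri, against 12.43 in LRC, 10.11 in EpiC, 8.00 in EndoP and 8.17 in Stele, and SCPL34 averaged 5.97 in Peri, against 10.88 in LRC, 7.39 in EpiC, 6.47 in EndoP and 6.20 in Stele. The beta-glucosidases had 2 of 14 lower, the RALF-like peptides 3 of 10 lower and 1 higher, the SKU5-similar proteins 2 of 2 lower and the jacalin-related lectins 2 of 3 lower. Without the 4 brightest Peri arrays the RALF-like peptides had 0 lower and 1 higher, and with array signal as a covariate 1 lower and 1 higher. They had 1 lower without any one of Peri transitory replicates 1 and 2 and the 3 Peri continuous replicates, where RALFL33 and RALFL22 lost their calls, and 0 higher without Peri KCl replicate 1 or 3. The beta-glucosidases had 1 lower without Peri transitory replicate 1 or continuous replicate 1 or 2, with array signal as a covariate and without the 4 brightest, and 4 lower without EndoP transitory replicate 1. With LRC left out of the comparison, no member of these 5 families was lower, and scpl31 was the one member called, as higher.

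Within single treatments, with 3 Peri arrays each, the difference from the mean of the other 4 was largest in number under KCl in the upward direction. Under KCl 562 probe sets were higher (2.95%) and 145 lower (0.76%), 3.71% in all. Under transitory KNO3 144 were higher (0.755%) and 185 lower (0.97%), 1.73% in all, and under continuous KNO3 223 were higher (1.17%) and 471 lower (2.47%), 3.64% in all. On the log2 scale OCT1 differed by 3.39 under KCl, 1.78 under transitory and 1.28 under continuous KNO3, and BCAT4 by 2.98, 1.68 and 1.06. The last value of each did not pass within its treatment (limma adjusted p = 0.0516 and 0.0814). AT1G64370 passed in all 3, at 4.81, 4.24 and 2.66.

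These counts rested on single arrays. Under KCl the count was 271 without Peri KCl replicate 1 and 262 without replicate 3. Under transitory KNO3 it was 177, 64 and 1905 without Peri transitory replicates 1, 2 and 3, 580 without Peri continuous replicate 3, 599 without LRC continuous replicate 2, 213 without EpiC transitory replicate 2 and 536 without EndoP transitory replicate 1. Under continuous KNO3 it was 57, 79 and 1941 without Peri continuous replicates 1, 2 and 3 and 1369 without Peri transitory replicate 3. For the other populations under continuous KNO3 it was 1621, 339 and 1430 without LRC continuous replicates 1, 2 and 3, 324, 359 and 1495 without those of EpiC, 376, 1241 and 390 without those of EndoP, 340 without Stele continuous replicate 2 and 1128 without EndoP transitory replicate 1. With array signal as a covariate the transitory count was 89 and the continuous count 3, while under KCl it was 609. Without quantile normalization the splits were 300 higher and 223 lower (KCl), 345 and 90 (transitory) and 2986 and 363 (continuous).

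The change of the Peri difference with treatment itself passed for 4 probe sets (0.021%; F test in limma), all known by locus alone and named after their values were seen, while 5474 had an unadjusted p under 0.05, where 954 would be the number at that level without any change. AT3G62960 had 8.35, 8.20 and 8.17 in Peri under KCl, 6.83, 6.61 and 6.80 under transitory and 6.08, 6.57 and 6.04 under continuous KNO3, against 4.58 to 7.15 on the other 36 arrays. Its KCl arrays lay above all others and its nitrate arrays within their range, so that the Peri difference was smaller by 1.60 under transitory and by 2.04 under continuous KNO3 than under KCl (limma adjusted p = 0.00596). On the MSX arrays AT3G62960 stood at 7.25 to 8.97. AT1G21440 moved the same way, whereas AT2G38160 and AT5G66150 moved the other way. AT2G38160 had 6.15, 6.07 and 5.88 in Peri under KCl, 8.04, 7.72 and 7.74 under transitory and 8.04, 8.17 and 6.56 under continuous KNO3.

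The number of such changes was not stable, and no gene with a symbol passed. Leaving out any one of 41 of the 45 arrays moved it by more than 1.5 times. It was 0 without Peri KCl replicate 1 or 3, 1 or 2 without any one of 29 arrays, and 8 or more without any one of 10, up to 3453 without Peri transitory replicate 3 and 1552 without Peri continuous replicate 3. The others of these 10 were Peri transitory replicate 1 (65), Peri continuous replicate 1 (19), LRC KCl replicate 2 (8), LRC continuous replicate 3 (913), EndoP transitory replicate 1 (740), EndoP continuous replicate 2 (556), Stele KCl replicate 1 (1250) and Stele transitory replicate 1 (364). Brightness differed between the Peri KCl arrays and 4 of the 6 Peri nitrate arrays, as given above, and with array signal as a covariate 1 change passed.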

How the data were processed

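The deposited series table gives 1 value per probe set and array on a log2 scale, per the column values. The software and the between-array normalization that the authors used for these log2 values are not given in the sources used here. The total signal differed between arrays, so the 54 sorted-cell arrays were quantile normalized. Of 22810 probe sets, 64 Affymetrix controls were left out. The 19072 tested were those above the 40th percentile of all values of the 45 arrays on at least 3 of them. Precision is limited by the number of arrays, and arrays carry no read depth.

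R 4.3.3 and limma 3.58.1 (lmFit, then eBayes with an intensity trend) gave the differences, with population and treatment as terms and Peri set against the mean of the other 4 or against each. Treatments were taken apart in a fit with 1 coefficient per population and treatment, and the change of the difference with treatment was an F test. P-values were adjusted by Benjamini-Hochberg over all 19072 probe sets, with a threshold of 0.05. On simulated data with 50 probe sets per size, the comparison with the mean of the other 4 recovered 12, 42, 49 and 49 of differences of 0.5, 1, 1.5 and 2 log2 units. The simulated deviations were independent between arrays and probe sets, without bright arrays, arrays that stood apart or 3′ bias. These rates therefore need not hold for the real arrays. Figures were drawn with matplotlib 3.10.9.

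Gene names came from the platform annotation, updated through RefSeq gene IDs for 13436 of 13513 probe sets with 1 gene. A further 503 list several genes and 8794 none, and neither kind was named. The brightest probe set stood for a gene. Genes named by rule were the up to 12 highest and 12 lowest genes with a symbol and 4 of each known by locus, among calls with Peri beyond all 4 others in each treatment. The given marker genes, genes of the lists and the 5 genes most like each marker were also named. The genes beyond all 4 populations, those whose difference changed with treatment, GTR2 and the gene families were chosen after their values were seen. The markers, gene lists and the rule were chosen with earlier results of these data known. Of 18 gene lists, those for xylem loading and stelar transport, indole glucosinolates, the cell cycle and phloem markers had no nameable member here.

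Groups came from sample titles, which call the 3 arrays of a group biological replicates. No arrays were identical. Replicate numbers were not taken as pairs, since the labels state no shared origin and not every same-numbered pair deviated together. Alternatives varied the normalization, filter, covariates, weights, populations and arrays included. Whole-root arrays were not used, and scan dates were not used as a block.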

Additional observations from a re-analysis of the deposited data

Results flagged for a closer look

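The difference between Peri and the mean of the other 4 populations changed with treatment in 4 loci by an F test in limma over all probe sets. For AT3G62960 it was 2.12 under KCl, 0.52 under transitory and 0.08 under continuous KNO3 (log2, adjusted p = 0.00596). For AT1G21440 it was 2.48, 0.86 and 0.37 (limma adjusted p = 0.0499). AT2G38160 went the other way, at -0.80, 1.23 and 1.07 (limma adjusted p = 0.0499), and so did AT5G66150, at -0.74, 1.17 and 1.01 (limma adjusted p = 0.0499). In Peri, AT5G66150 had 5.11, 5.29 and 5.45 under KCl, 6.96, 7.07 and 6.77 under transitory and 6.79, 7.24 and 6.20 under continuous KNO3, and AT1G21440 had 9.48, 8.44 and 8.95, then 7.32, 7.60 and 7.32, then 7.38, 7.21 and 6.37 in the same order. In both loci the KCl arrays of Peri did not overlap with its nitrate arrays. Of 51 alternatives, AT3G62960 passed in 49, AT5G66150 in 18 and each of the remaining loci in 17.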

How the results depend on the processing

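Counts of calls are given in the order of the mean of the other 4, LRC, EpiC, EndoP, Stele, all 4 at once, KCl, transitory, continuous and the change with treatment. Leaving out 1 array at a time gave 938 to 1575, 4674 to 7834, 1961 to 5265, 209 to 479, 1205 to 2060, 10 to 51, 262 to 884, 64 to 1905, 57 to 1941 and 0 to 3453. Array weights, whose estimation did not converge fully, gave 13243, 14622, 13035, 3252, 11358, 1509, 7076, 12032, 13364 and 13736. The other alternatives moved a part of these counts by more than 1.5 times. Without quantile normalization they were 523 for EndoP, 2598 for Stele, 30 for all 4, 3349 for continuous and 3574 for the change. With array signal as a covariate they were 4150 for LRC, 1251 for EpiC, 993 for EndoP, 2798 for Stele, 30 for all 4, 89 for transitory, 3 for continuous and 1 for the change, which was 1 also without the filter. Without the 2 arrays that stood apart they were 2175 for the mean, 568 for EndoP, 37 for all 4, 866 for transitory, 2732 for continuous and 2306 for the change. Without the 4 brightest Peri arrays, chosen after seeing the data, they were 2882 for LRC, 761 for EpiC, 4563 for EndoP, 2563 for Stele and 53 for all 4, with 873 for the mean. The mean gave 473 without LRC, 2687 without EndoP and 226 with the other 4 as 1 level, the GAPDH covariate gave 1867 for LRC, and 1 coefficient per population and treatment gave 23 for all 4. With the replicate number as a block the mean gave 1303, and no count moved by more than 1.5 times. Deviations of same-numbered arrays correlated at -0.67 to 0.77 (median 0.03, against -0.02 for different numbers), with 126 of 315 pairs over 0.1 and 20 of 45 arrays closest to their own number. Signs turned for EXPA7 (-0.37 with array signal, -0.04 without LRC, -0.08 without EpiC, -0.04 with GAPDH and -1.17 without the 4 brightest Peri arrays), for SIR (-0.27 with array weights) and for HHO2 (0.21 without the 4 brightest). Of the gene values, 4780 kept direction and side of the threshold, 354 lost and 54 gained a call. Apart from the construction of each alternative, the cause of these shifts was not tested. A scan date block was not run. OCT1, BCAT4, GTR2, AT1G64370, FMO, scpl31, BAT1, EXPA4 and GSTU26 passed in all 61 alternatives.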
